A study of Homo sapiens with 6 samples.

Results

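Human mitochondrial DNA is a small circular genome that encodes 2 ribosomal RNAs, 13 messenger RNAs and 22 transfer RNAs, 37 genes in all. Of these, 4 were in the deposited table of 3511 genes from RKO cells. They were the ribosomal RNAs MT-RNR1 and MT-RNR2 and the messenger RNAs MT-CO1 and MT-ATP8. Members were taken as the rows with a mitochondrial gene symbol. For MT-CO1 and MT-ATP8 that symbol stood in the table. For the 2 ribosomal RNAs the table gave only the Ensembl identifier, ENSG00000211459 for MT-RNR1 and ENSG00000210082 for MT-RNR2, and a table of gene names supplied the symbol. In cells kept in fasting medium, MT-RNR2 rose 4.004-fold, MT-RNR1 rose 3.14-fold and MT-CO1 rose 1.63-fold, while MT-ATP8 was 2.13-fold lower.

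RKO is an established human colorectal carcinoma line, here labelled wild type. Bulk RNA was sequenced after 48 h in control medium, with 10% serum and 4.5 g/L glucose (3 libraries), or in fasting medium, with 1% serum and 1 g/L glucose (3 libraries). Both media carried antibiotics. The labels do not say whether the libraries of a group came from separate cultures, so p-values measure the spread between these libraries, which may be technical. In bulk RNA, fewer cells with a transcript and less of it per cell cannot be told apart.

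Mitochondrial DNA is transcribed on each strand into long precursors that span many genes. The transfer RNAs lie between most of the other genes, and cutting them out releases the ribosomal and messenger RNAs. The ribosomal RNAs stand first after the heavy-strand promoter and form the core of the mitochondrial ribosome, which translates only the mitochondrial messenger RNAs. Those messages encode core subunits of the respiratory chain and of ATP synthase, and most have a short poly(A) tail. All 4 listed genes are transcribed from the same strand.

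MT-RNR1, the small-subunit ribosomal RNA, has 954 bases in the GENCODE release 29 annotation. MT-RNR2, the large-subunit ribosomal RNA, has 1559 bases and follows it after a single transfer RNA gene of 69 bases, MT-TV. MT-CO1, of 1542 bases, encodes the catalytic subunit of cytochrome c oxidase, the respiratory complex that passes electrons to oxygen. It starts 5256 bases after the start of MT-RNR1. MT-ATP8 has only 207 bases and encodes a small membrane subunit of ATP synthase. It starts 7718 bases after the start of MT-RNR1. The 33 mitochondrial genes that were not listed, 11 messenger RNAs and 22 transfer RNAs among them, have no value here.

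**Figure D1:**
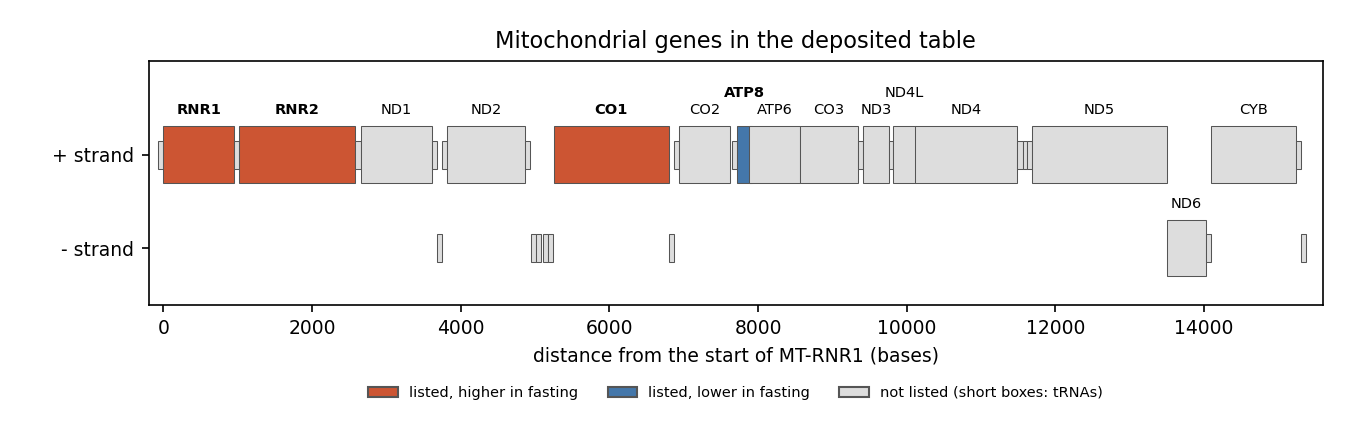
Map of the 37 mitochondrial genes of the annotation, to scale, by strand and by distance in bases from the start of MT-RNR1. Coloured boxes are the 4 listed genes, with MT-RNR1, MT-RNR2 and MT-CO1 higher and MT-ATP8 lower in fasting medium, and grey boxes are the 33 genes that were not listed.

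The end of MT-ATP8 is also the start of MT-ATP6, another ATP synthase subunit carried on the same messenger RNA. Of the 207 bases of MT-ATP8, the last 46 (22.2%) belong to both genes, which leaves 161 of its own. MT-ATP6 was not listed. Reads in the shared bases fit either gene, and how the authors assigned them is not given in the sources used here. The reference transcript of MT-ATP8 is shown because its counts rest on so short a stretch, with the bases shared with MT-ATP6 in capitals.
MT-ATP8: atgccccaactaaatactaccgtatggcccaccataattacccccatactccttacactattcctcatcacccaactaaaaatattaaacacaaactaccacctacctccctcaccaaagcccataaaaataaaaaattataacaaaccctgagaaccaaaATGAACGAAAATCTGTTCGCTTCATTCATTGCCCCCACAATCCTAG

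Levels are given as the authors' normalized counts, that is, reads of a gene divided by a size factor of the library. Each log2 fold change comes from limma, fitted to every listed gene after adding 1 to the normalized count, and a positive value means more RNA in fasting medium. Folds were computed back from these. Benjamini-Hochberg adjustment counted all 29845 genes in the authors' test, giving each gene outside the table a p of 1, and the threshold was 0.05. The table holds only genes whose adjusted p lay under 0.05 in the authors' own test, so the members had passed a test of these same libraries before they were listed. Of all 29845 genes, 5.85% were called higher and 5.25% lower in fasting medium. These are 1745 and 1567 genes, and with libraries scaled to the summed reads of the table the split was 862 higher and 1708 lower. Of the listed genes 94.3% were called, and in all 3511 the values of the groups were apart, so nothing is read from the fact that all 4 members were called. The median log2 fold change of the listed genes was 0.53.

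In MT-RNR2 the control libraries held 19141, 18768 and 18355 normalized counts in replicates 1 to 3, and the fasting libraries 64891, 69180 and 94266. The lowest fasting library was 3.39 times the highest control library. The log2 fold change was 2.001 (SE 0.15, 95% interval 1.66 to 2.35, adjusted p = 1.37e-04, limma). Of the called genes, 262 had a larger rise. Controls spread little, with a coefficient of variation of 2.1%, against 20.8% in fasting medium, where replicate 3 stood highest.

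For MT-RNR1 the control libraries gave 4078, 3795 and 3806 normalized counts, by replicate number. The fasting libraries gave 9837, 10607 and 17562. The groups were apart, with the lowest fasting library at 2.41 times the highest control library. Its log2 fold change was 1.65 (SE 0.20, 95% interval 1.18 to 2.13, adjusted p = 1.25e-03, limma). Fasting replicate 3 lay 1.72-fold above the geometric mean of fasting replicates 1 and 2, so the coefficient of variation was 33.6% in fasting medium against 4.1% in controls. Without fasting replicate 3 the log2 fold change was 1.39.

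MT-CO1 was the gene with the highest level in the table. It held 187572, 177535 and 172444 normalized counts in controls, by replicate number, and then 275139, 275075 and 326093 in the fasting libraries. No fasting library came under 1.47 times the highest control. The log2 fold change was 0.70 (SE 0.14, 95% interval 0.38 to 1.02, adjusted p = 0.0113, limma), and 1413 called genes had a larger rise. Of the 4 calls this one was lost under the most alternatives, 5 of 22. It did not pass without control replicate 2 (log2 fold change 0.69, adjusted p = 0.0702) or 3 (0.67, adjusted p = 0.0635), or with libraries scaled to the summed reads of the table (0.22, adjusted p = 0.115) or with the trend with transcript length removed (0.32, adjusted p = 0.0782).

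MT-ATP8 moved the other way. Controls had 2151, 2671 and 1534 normalized counts in replicates 1 to 3, and fasting libraries 929, 1007 and 972. The lowest control, replicate 3, was still 1.52 times the highest fasting library. The log2 fold change was -1.09 (SE 0.18, 95% interval -1.52 to -0.66, adjusted p = 5.34e-03, limma), and 571 called genes had a larger fall. Here the spread lay in the controls, with a coefficient of variation of 26.9% against 4.0% in fasting medium. Recovered reads numbered 2181, 3760 and 2110 in control replicates 1 to 3, and counting error alone would give at most 2.18% of the value. Without control replicate 3 the log2 fold change was -1.31, and without control replicate 2 it was -0.91. With the length trend removed it was -1.85. That value used the annotated 207 bases, not the longer messenger RNA shared with MT-ATP6, and few listed genes so short stood behind the trend.

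**Figure D2:**
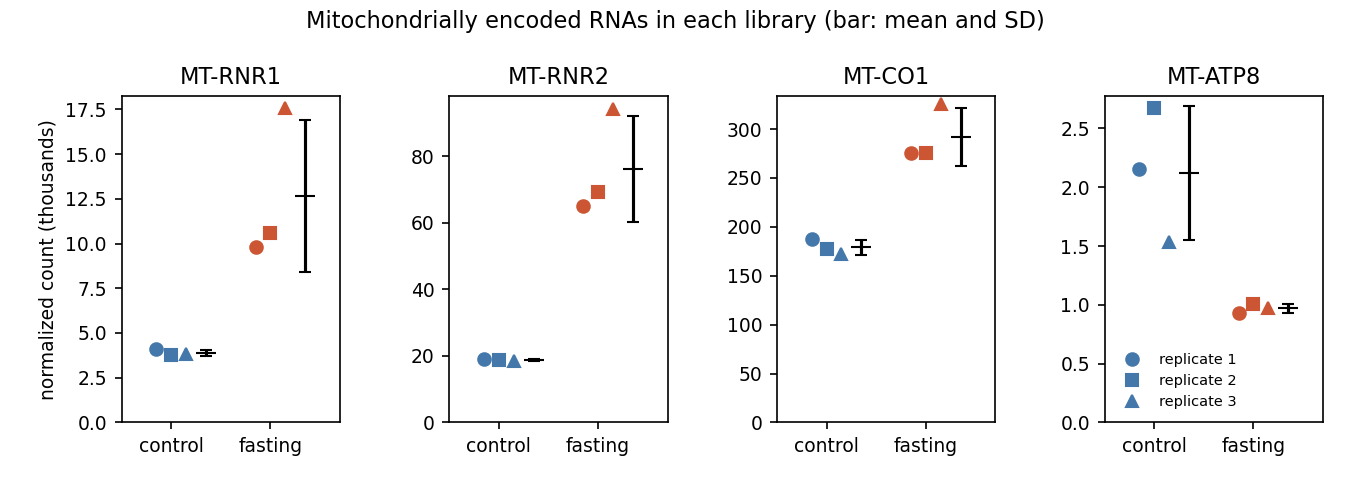
Normalized counts of the 4 mitochondrially encoded RNAs in each control and fasting library, with a separate axis from 0 for each gene in units of 1000 normalized counts, 1 symbol per replicate number, and bars for the mean and SD of 3 libraries. Fasting replicate 3 is the highest library for MT-RNR1 (17562), MT-RNR2 (94266) and MT-CO1 (326093), and control replicate 3 is the lowest control for MT-ATP8 (1534).

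The fold changes above depend on the size factors of the authors. Scaling to the summed reads of the table shifted every log2 fold change by -0.48, and median-of-ratios scaling on the listed genes (RLE) by 0.20. Under these the log2 fold change ranged from 1.52 to 2.20 for MT-RNR2, from 1.18 to 1.85 for MT-RNR1, from 0.22 to 0.90 for MT-CO1 and from -1.57 to -0.89 for MT-ATP8. All signs held, and of the 4 calls only that of MT-CO1 was lost, with the total. Without moderation of the variance across genes, MT-RNR1 (adjusted p = 0.0503) and MT-ATP8 (adjusted p = 0.110) did not pass, while MT-RNR2 (adjusted p = 0.0109) and MT-CO1 (adjusted p = 0.0283) did.

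**Figure D3:**
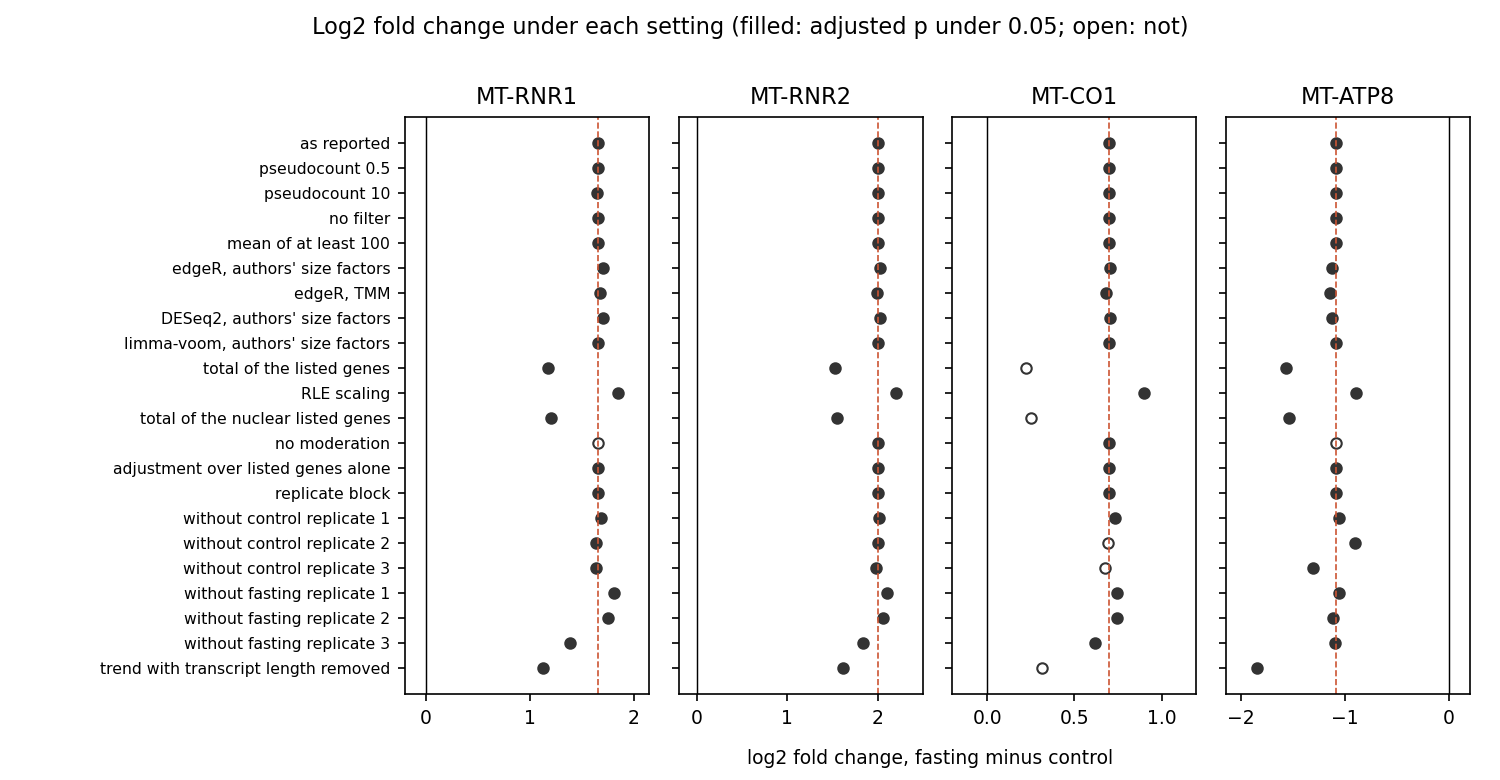
Log2 fold change, fasting minus control, of the 4 members as reported and under each other setting, with filled circles for adjusted p under 0.05, open circles for the rest, a dashed line at the reported value and a solid line at 0. MT-RNR1, MT-RNR2 and MT-CO1 stay above 0 and MT-ATP8 stays below 0 in every setting drawn, and MT-CO1 has the most open circles.

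A ratio of 2 genes within a library does not depend on the size factor. For ribosomal over messenger RNA, MT-RNR2 over MT-CO1 was 0.102, 0.106 and 0.106 in controls, by replicate number, against 0.236, 0.251 and 0.289 in fasting medium. The groups were apart, and the ratio was 2.46-fold higher in fasting medium (log2 difference 1.30, SE 0.09). MT-RNR1 over MT-CO1 went from 0.0217 ± 0.0003 to 0.0427 ± 0.0097 (SD, n = 3 each), a log2 difference of 0.95 (SE 0.18). Relative to the message of cytochrome c oxidase subunit I, then, each ribosomal RNA was higher in all 3 fasting libraries than in any control.

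The 2 ribosomal RNAs did not keep a constant ratio. MT-RNR1 over MT-RNR2 was 0.213, 0.202 and 0.207 in controls, by replicate number, and then 0.152, 0.153 and 0.186 in the fasting libraries. All fasting values lay below all controls (log2 difference -0.35, SE 0.10). Fasting replicate 3 was nearest to the controls, and without it the difference was -0.44.

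The counts of the 2 messenger RNA genes moved apart. Those of MT-ATP8 cover only a part of its messenger RNA. MT-ATP6, on the same message, was not listed, so the change of that message as a whole is not known. MT-ATP8 over MT-CO1 was 0.0115, 0.0150 and 0.00889 in controls, by replicate number, and then 0.00338, 0.00366 and 0.00298 in the fasting libraries. The ratio was 3.47-fold lower in fasting medium (log2 difference -1.79, SE 0.24). Its values could not overlap, since the groups were apart in opposite directions in the 2 genes. MT-RNR2 over MT-ATP8 went from 9.30 ± 2.50 to 78.5 ± 16.0 and MT-RNR1 over MT-ATP8 from 1.93 ± 0.53 to 13.1 ± 4.3 (SD, n = 3 each). Each of the 6 pairs of members gave p = 0.1 in a two-sided exact permutation test, and p = 0.1 after Benjamini-Hochberg adjustment over the 6 pairs. That is the smallest value 3 libraries against 3 can give, so this test could not pass 0.05. The pairs share genes and are not independent, and for the pairs with MT-ATP8 this outcome was fixed in advance by the opposite directions.

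**Figure D4:**
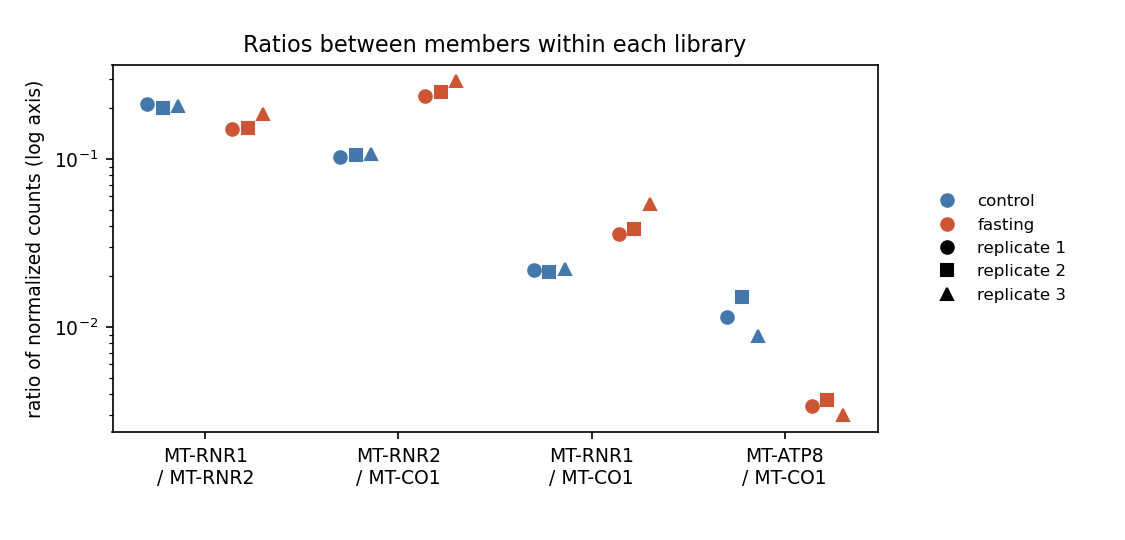
Ratio of normalized counts of 4 pairs of members within each library, on a log axis, with colour for the medium and a symbol for the replicate number. In all 4 pairs the control and fasting points are apart, with MT-RNR2 over MT-CO1 at 0.102 to 0.106 in controls and 0.236 to 0.289 in fasting medium. For MT-ATP8 over MT-CO1 this follows from the opposite directions of the genes.

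Levels of different genes can be compared only per length. In control medium MT-CO1 stood highest at 116202 ± 4992 normalized counts per kilobase, then came MT-RNR2 at 12030 ± 252, MT-ATP8 at 10235 ± 2751 and MT-RNR1 at 4081 ± 168 (SD, n = 3 each). MT-RNR2 and MT-ATP8 overlapped in controls, since control replicate 2 had 12905 for MT-ATP8. In fasting medium the levels per kilobase were 189431 ± 19090 for MT-CO1, 48821 ± 10178 for MT-RNR2, 13279 ± 4461 for MT-RNR1 and 4684 ± 189 for MT-ATP8. MT-RNR1 and MT-ATP8 thus stood in the opposite order in the 2 media, with no overlap between them in either. The levels of MT-ATP8 use its 207 bases, 46 of them shared with MT-ATP6, so the length open to its reads is uncertain. By level per kilobase over the 6 libraries the members ranked 1 (MT-CO1), 8 (MT-RNR2), 28 (MT-RNR1) and 31 (MT-ATP8) in the table. The labels' protocols name total RNA and a directional kit but neither poly(A) selection nor removal of ribosomal RNA, so levels of ribosomal against messenger RNA are those that the library preparation left.

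Together the 4 genes held 4.89% to 5.37% of the normalized counts of the listed genes in control libraries and 6.60% to 7.27% in fasting libraries. The ribosomal part was 0.553% to 0.586% in controls and 1.41% to 1.85% in fasting medium. The messenger part, nearly all of it MT-CO1, was 4.34% to 4.79% in controls and 5.19% to 5.42% in fasting medium. These shares are of the listed genes and not of the whole library, whose total is unknown. Reads in the listed genes numbered from 4017618 to 5602177 per library.

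The change between media varied with transcript length in the table. Among listed genes whose group mean reached 100 normalized counts in either medium, the median log2 fold change was 0.99 for transcripts of 500 to 1000 bases, 0.70 for 1000 to 2000 bases, 0.60 for 2000 to 4000 bases and -0.68 for 4000 bases or more. MT-CO1, at 0.70, stood at the median of its length class, and MT-RNR2 (2.001) and MT-RNR1 (1.65) stood above theirs. By its annotated 207 bases MT-ATP8 (-1.09) was classed with the 13 genes under 500 bases, whose median was 1.11. The messenger RNA it shares with MT-ATP6 is longer, so that class may not be its own. The part of length in the members' changes was not tested beyond the removal of the trend.

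Fasting replicate 3 also differed from the other fasting libraries by transcript length. Its log2 value minus the mean of fasting replicates 1 and 2 was taken for the same genes. The median of this deviation was 0.47 for transcripts of 1000 to 2000 bases and 0.59 for those of 500 to 1000 bases. For transcripts of 4000 bases or more the median was -0.33. MT-RNR2 (0.49) and MT-RNR1 (0.78) deviated as other transcripts of their length did or somewhat more, the middle 50% of genes of 500 to 1000 bases lying between 0.35 and 0.75. MT-CO1, at 0.25, lay below the middle 50% for its length (0.32 to 0.59). MT-ATP8 deviated by only 0.01. The median was 0.50 for the 13 genes under 500 bases, where its annotated length, without MT-ATP6, places it. Without fasting replicate 3 all 4 members passed, with log2 fold changes of 1.84 for MT-RNR2, 1.39 for MT-RNR1, 0.62 for MT-CO1 and -1.09 for MT-ATP8 (limma, adjusted p from 7.65e-12 to 1.02e-04). In that fit 3509 of the 3511 listed genes were called, so nothing is read from the 4 calls. With the length trend removed from every library the members' log2 fold changes were, in the same order, 1.62, 1.13, 0.32 and -1.85. MT-RNR2, MT-RNR1 and MT-ATP8 kept their calls there, where 3069 of the 3511 listed genes were called.

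**Figure D5:**
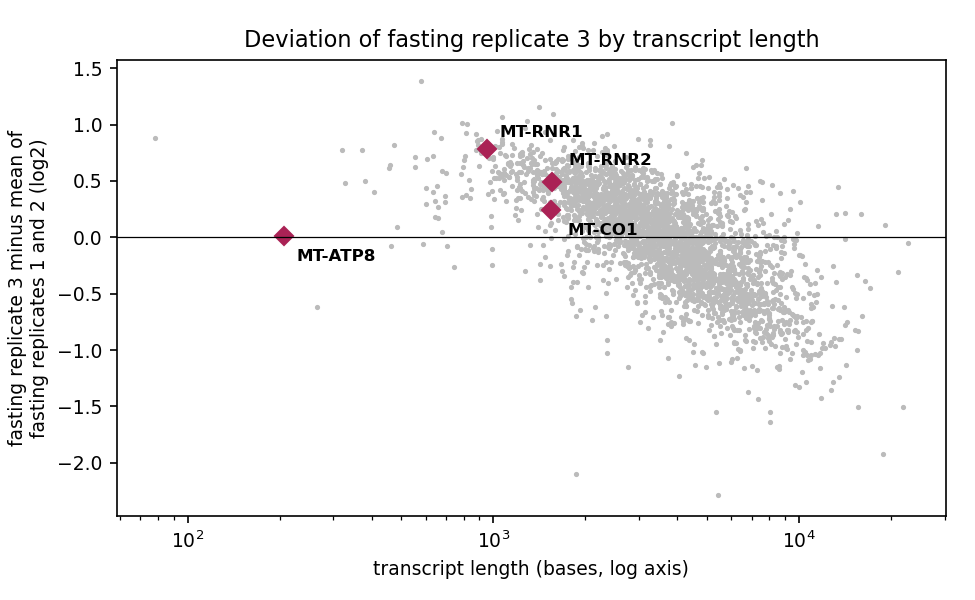
Fasting replicate 3 minus the mean of fasting replicates 1 and 2, in log2 units, against transcript length in bases on a log axis, for listed genes with at least 100 normalized counts in either group. Diamonds mark the 4 members, of which MT-RNR1 (0.78) and MT-RNR2 (0.49) lie within the cloud of other transcripts of their length. MT-ATP8 (0.01) lies at the short end by its annotated length, which leaves out MT-ATP6.

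The nuclear genome carries old copies of mitochondrial DNA, and 2 of them were listed. MTCO1P12 (ENSG00000237973) is a copy of MT-CO1, identical to it in 1522 of 1543 aligned positions (98.6%). MTCO2P2 (ENSG00000267541) matches MT-CO2 in 194 of 203 aligned positions. The 60 bases of MT-CO1 from 304 to 363 of its transcript and the matching part of MTCO1P12 are shown, with the 3 differing bases in capitals. No 60 aligned bases without a gap held more differences than these. They are shown because so few differences decide to which gene a short read belongs.
MT-CO1: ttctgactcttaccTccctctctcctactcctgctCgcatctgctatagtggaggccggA
MTCO1P12: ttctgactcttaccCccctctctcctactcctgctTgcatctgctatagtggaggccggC

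MTCO1P12 held 229, 186 and 204 normalized counts in controls, by replicate number, against 397, 423 and 558 in fasting medium (log2 fold change 1.14, SE 0.15, adjusted p = 1.86e-03, limma). In every library that was between 0.105% and 0.171% of MT-CO1. As a percentage of MT-CO1 it was 0.105% to 0.122% in controls and 0.144% to 0.171% in fasting medium. With so small a share, adding its counts to those of MT-CO1 could hardly change the log2 fold change of MT-CO1, which stayed at 0.70. MTCO2P2 had 1 to 5 reads in each control library and 9 to 12 in each fasting library, and with so few reads no size is read from its change. How reads that fit a copy and the original were divided is uncertain.

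Among listed genes with at least 100 normalized counts in either group, those with the profile nearest to each member over the 6 libraries were ranked by the Euclidean distance between log2 values centred on each gene's mean, where 0 is an identical profile. For MT-RNR2 these were UBE2B (distance 0.094), SARS1 (0.109) and NEU1 (0.156). For MT-RNR1 they were EPB41L4A-AS1 (0.186), MANF (0.187) and KRT18 (0.195). MT-CO1 was nearest to PLEKHO2 (0.044), TMBIM6 (0.078) and GPR137B (0.079). MT-ATP8 was nearest to PCBP1 (0.153), then SENP3 (0.298) and FGFBP3 (0.305). PCBP1 had 780, 924 and 613 normalized counts in controls, by replicate number, against 343, 378 and 363 in fasting medium, with control replicate 3 lowest among controls as in MT-ATP8. The members were not nearest to each other. MT-RNR1 ranked 74 by distance from MT-RNR2 (0.491), and MT-CO1 ranked 940 from it (1.61).

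The proteins that make, process and use these RNAs are encoded in the nucleus. Counts for them are members that rose or fell among those listed, and unlisted members have no value. Of all genes that the authors tested, 11.8% were listed, 5.85% were called higher and 5.25% lower. These shares stand beside every list count here and below, and no list was tested against them. Of 17 genes of mitochondrial transcription and DNA maintenance, 1 was listed. It was POLRMT, the RNA polymerase that transcribes mitochondrial DNA, and it fell. Its control libraries had 3080, 3262 and 3324 normalized counts in replicates 1 to 3 and its fasting libraries 1616, 1606 and 2141 (log2 fold change -0.86, adjusted p = 2.48e-03, limma). All fasting libraries lay below all controls, and the groups were apart in all 3511 listed genes. The fall was in the direction of MT-ATP8 and opposite to that of MT-RNR1, MT-RNR2 and MT-CO1.

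In the list of mitochondrial RNA processing and decay, 4 of 23 genes were listed, of which 2 rose and 2 fell. LRPPRC, which binds and stabilizes mitochondrial messenger RNAs, rose by 0.67 log2 units, from 3574, 3703 and 3412 normalized counts in controls to 5725, 6041 and 5242 in fasting medium. SUPV3L1, a helicase of mitochondrial RNA decay, rose by 0.65. ELAC2, which cuts precursors at the ends of transfer RNAs, fell by 0.54 on the log2 scale. FASTKD2, an RNA-binding protein tied to MT-RNR2, fell by 0.62 (adjusted p from 1.56e-03 for LRPPRC to 4.53e-03 for FASTKD2, limma).

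Genes that modify mitochondrial ribosomal RNA or assemble the ribosome numbered 26, of which 5 were listed, with 2 rising and 2 falling. RPUSD4, a pseudouridine synthase that acts on MT-RNR2, rose by 0.79 and NSUN4, a methyltransferase that acts on MT-RNR1, by 0.61. MALSU1 (-0.87) and METTL17 (-0.61) fell. MRM1, a methyltransferase, had a log2 fold change of -0.61 and did not pass (adjusted p = 0.113, limma). Of 82 mitochondrial ribosomal proteins 7 were listed, with 4 higher and 3 lower in fasting medium (median 0.92 over the 7). MRPL18 rose by 1.81, from 887 ± 46 to 3156 ± 647 normalized counts (SD, n = 3 each), MRPL45 by 1.20 and MRPL10 by 1.06, while MRPS26 fell by 0.77 on the log2 scale. All 7 lay higher in fasting replicate 3 than in the mean of the other fasting libraries, by 0.43 to 0.80 log2 units, and its part in these changes was not tested. For translation itself, OXA1L, which inserts new mitochondrial proteins into the inner membrane, was the only listed gene of 16 and rose by 0.74. Of 20 genes that charge mitochondrial transfer RNAs, synthetases and subunits of the amidotransferase that completes glutaminyl-tRNA, 5 were listed, with 2 higher and 3 lower. The amidotransferase subunit GATB rose by 0.66, and the synthetases AARS2 (-0.61) and NARS2 (-0.66) fell.

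With lists this small, the counts for the partners of MT-CO1 and MT-ATP8 lie near the 11.8% of all tested genes that were listed. Of 14 nuclear genes for complex IV subunits 1 was listed, COX7A2L, which joins complex IV to other complexes and rose by 1.08 (adjusted p = 2.84e-03, limma). Among 28 complex IV assembly genes, COX19 rose by 0.63 and TIMM21 fell by 0.60 on the log2 scale. Of 23 nuclear ATP synthase subunit and assembly genes 2 were listed and both fell, the assembly factor ATPAF1 (-0.53, adjusted p = 0.0205) and the inhibitor ATP5IF1 (-0.76, adjusted p = 0.0241, limma).

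Regulators of mitochondrial biogenesis, of which 5 of 15 were listed, included GABPA (0.93) and GABPB1 (0.84), subunits of a factor that activates nuclear genes for mitochondrial proteins, and both rose. SIRT1 rose by 0.58 (adjusted p = 0.0492, limma), NRF1, another such factor, fell by 0.62 on the log2 scale, and GABPB2 had -0.68 without passing (adjusted p = 0.0744, limma). Of 24 genes of mitochondrial protein quality control 9 were listed and all 9 rose (median 1.06, against 0.53 for all listed genes). Of all 3511 listed genes, 1745 were called higher. The quality control list also holds stress factors that are not particular to mitochondria. These are DDIT3, which rose by 3.91, and ATF4 (2.13), with CEBPB (2.13) and ATF5 (0.97). The mitochondrial chaperones HSPA9 (1.06), HSPD1 (1.00) and HSPE1 (1.82), the protease LONP1 (0.53) and DELE1 (0.87), which relays mitochondrial stress, rose too. HSPA9 had 11572, 11541 and 11537 normalized counts in controls, by replicate number, against 24199, 23914 and 24321 in fasting medium. In 7 of these 9 genes fasting replicate 3 stood higher than the mean of the other fasting libraries by 0.27 (HSPD1, LONP1) to 0.87 (DDIT3) log2 units, with HSPE1 at 0.75 and ATF4 at 0.51, and only HSPA9 (0.02) and DELE1 (0.07) lay closer to it. The part of this library in these rises was not tested.

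Of 37 genes on a list of RNAs without a poly(A) tail, 4 were listed. Counts per gene do not separate forms with a tail from forms without, so these 4 may include both. MALAT1 (0.59), NEAT1 (0.56) and the histone gene H4C8 (1.18) rose, and the histone gene H1-2 fell by 1.18 on the log2 scale. Their part in the result for the ribosomal RNAs was not tested. Of 11 epithelial marker genes 1 was listed, KRT18, which rose by 1.72. None of 8 fibroblast or 6 leukocyte marker genes was listed, and a table of called genes cannot show whether an unlisted marker was present.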

How the data were processed

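Per the labels' protocols, total RNA was made into directional libraries. DESeq 1.10.1, HTSeq 0.6.1 and UMI-tools 1.0.0 appear in the submitters' processing notes without their roles. Not given in the sources used here are the aligner, the build and the use of strand, and genome coordinates are therefore left out. For each library the authors deposited a signal, reads over a size factor, and for the comparison a log2 fold change and p-values, raw and adjusted. Whole reads were recovered for 100% of values within 0.01 read. The 29845 genes tested come from the authors' adjusted p, p and rank.

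The main test was limma 3.58.1 (R 4.3.3) with a mean-variance trend, after a pseudocount of 1 and log2, on genes whose group mean reached 1 in either medium. It was checked on simulated counts with the same dispersion in every gene, with adjustment over the listed genes alone. The check therefore does not cover the adjustment over all 29845 genes. The simulated counts had no shift with transcript length, so the one in fasting replicate 3 is not covered either. edgeR 4.0.16 and DESeq2 1.42.0 were run on the recovered reads as alternatives, beside other scalings, filters, pseudocounts, a replicate block, removal of the length trend and leaving out each library. Ratios were tested by exact permutation. Groups follow the treatment label, since the protocol text shared by all samples describes the fasting medium alone. The drug treatments that the series mentions were not analysed here.

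Members and the 18 gene lists were chosen with earlier results of these data known. Genes named are all members, their listed nuclear copies, up to 3 members of each list by adjusted p and the first opposite one, and the 3 nearest profiles. FASTKD2, METTL17, MRM1, SIRT1, GABPB2, CEBPB, ATF5, HSPD1, HSPE1, LONP1 and DELE1 were added after their values were seen. Names were found for 3467 identifiers. Lengths and transcripts come from GENCODE release 29 (GRCh38), and copies were aligned with Biopython 1.88. 5 list symbols had no match.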

Additional observations from a re-analysis of the deposited data

How the results depend on the processing

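MT-RNR2 kept its sign and call in all 21 alternatives (log2 fold change 1.52 to 2.20). MT-RNR1 did so in 20 of 21, MT-ATP8 in 20 of 21 and MT-CO1 in 17 of 22. Some of these alternatives could not lose a call. The fit without a filter was the main fit again, since every listed gene had passed the filter. Adjustment over the listed genes alone can only lower an adjusted p. For MT-CO1, adding the few counts of MTCO1P12 could hardly change the value. MT-CO1 did not pass with scaling to the total of the listed genes (0.22) or of the nuclear listed genes (0.25), or with the length trend removed (0.32), and on leaving out each library it lay at 0.62 to 0.74, without a call when control replicate 2 or 3 was left out. Without moderation MT-RNR1 (1.65) and MT-ATP8 (-1.09) did not pass, since the spread of each gene alone was used, and 1981 genes were called in place of 3312. The log2 ratios within libraries kept their sign in every alternative run, namely a pseudocount, a replicate block and leaving out each library. With the groups apart, leaving out a library could not turn a sign, and the block leaves the difference as it was. No alternative for the ratios removed the length trend. With the replicate block the log2 fold changes were as reported, MT-CO1 at 0.70 with adjusted p = 0.0471 (limma), and 3293 genes were called. The labels do not say whether same-numbered libraries were paired. Their deviations from the group means correlated at 0.03, 0.03 and 0.08 across 2886 genes. Of 3 fasting libraries, 2 correlated best with their own number. With 3 libraries per group this cannot settle whether they were paired. MTCO1P12 was added to MT-CO1 after seeing the data. Total depth is unknown, which limits shares to the listed genes.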
